A study of Caenorhabditis elegans with 2 samples.

Results

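The intron peaks described here are the autosomal peaks of NHR-179 ChIP-seq whose summits lay inside a protein-coding gene of Caenorhabditis elegans but outside every protein-coding exon and away from promoters. A summit had to be more than 500 bp from each protein-coding transcript start and more than 200 bp from any tRNA, snRNA, snoRNA or rRNA gene. Of the 9606 peaks called on the pooled replicates, 1227 (12.8%) met this rule, and no measured value entered it. The animals were whole young adult hermaphrodites of strain OP465, with the unc-119(tm4063) III mutation and the integrated transgene wgIs465, which expresses NHR-179 fused at its C-terminus to GFP and FLAG. Bleaching and L1 starvation synchronized them 64 hours before collection, and chromatin was sheared by sonication and precipitated with an antibody against GFP. The 2 biological replicates, numbered 2 and 3, formed 1 group. No untagged strain was analysed here, so the lists do not show which peaks depended on NHR-179.

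Nuclear hormone receptors are transcription factors that bind DNA through zinc fingers, many of them at core sites related to AGGTCA, and many respond to small lipophilic ligands. The family is greatly expanded in nematodes. Introns are removed from the primary transcript, but their DNA can hold regulatory elements and whole non-coding RNA genes nested within the host. In whole animals all tissues contribute chromatin, so a site used in few cells and a weakly occupied site used in many cannot be told apart.

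The DNA under 8 of the intron peaks is shown first, because these windows differ in what they contain: annotated non-coding RNA genes, GC-rich stretches, and short words tied to other factors. They are among the 12 intron peaks of highest pooled signal that recurred in both replicates and lay on chromosomes II to V. Each window is the summit base with 50 bp to either side, on the + strand of ce11, with sequence from the RefSeq genome of WBcel235, the same assembly. Capitals mark bases of an annotated non-coding RNA gene in the klp-6, W06H8.6 and W01D2.3 windows. In the others they mark a match to 1 of the 10 short motifs searched on both strands, and a window with no capitals had no match.
lips-10, chrII:8441650-8441750: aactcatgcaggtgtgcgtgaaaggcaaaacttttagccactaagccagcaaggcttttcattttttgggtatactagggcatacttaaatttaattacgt
klp-6, chrIII:5031616-5031716: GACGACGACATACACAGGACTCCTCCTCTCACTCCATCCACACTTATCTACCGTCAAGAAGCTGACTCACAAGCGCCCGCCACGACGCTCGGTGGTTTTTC
C01B9.4, chrII:13780825-13780925: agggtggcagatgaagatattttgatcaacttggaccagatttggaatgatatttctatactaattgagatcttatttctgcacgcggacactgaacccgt
mdt-26, chrII:5661827-5661927: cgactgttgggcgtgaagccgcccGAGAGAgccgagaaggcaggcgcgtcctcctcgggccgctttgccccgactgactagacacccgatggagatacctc
W06H8.6, chrV:6224704-6224804: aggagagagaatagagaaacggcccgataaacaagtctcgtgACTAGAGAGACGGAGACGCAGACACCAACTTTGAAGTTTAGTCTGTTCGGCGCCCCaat
Y69A2AR.31, chrIV:2657446-2657546: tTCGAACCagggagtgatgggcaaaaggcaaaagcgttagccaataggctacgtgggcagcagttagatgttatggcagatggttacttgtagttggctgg
Y48C3A.5, chrII:13298259-13298359: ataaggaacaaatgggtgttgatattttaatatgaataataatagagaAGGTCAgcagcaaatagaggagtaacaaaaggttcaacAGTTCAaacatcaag
W01D2.3, chrII:14801300-14801400: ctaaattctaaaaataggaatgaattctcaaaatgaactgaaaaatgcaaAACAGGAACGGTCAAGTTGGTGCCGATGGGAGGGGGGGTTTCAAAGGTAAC

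The klp-6 window lay wholly inside annotated non-coding RNA genes, srpr-2.2 and R144.16, both on the - strand. In the W06H8.6 window the capitals are bases of W06H8.16, a 56 bp non-coding RNA gene, and in the W01D2.3 window they are bases of W01D2.8, 78 bp long, with the summit on the last base of its 3′ end. The mdt-26 window was 66.3% GC and held a GA repeat (GAGAGA). The Y69A2AR.31 window held the core of the tRNA-type B box (GGTTCGA), although no tRNA gene lay within 200 bp. The Y48C3A.5 window held AGGTCA and the variant AGTTCA, and it was 31.7% GC. Over the 12 highest windows from which these 8 were picked by hand for their contents, AGGTCA or GGGTCA occurred in 2, at Y48C3A.5 and unc-104. AGTTCA also occurred in the W01D2.3 window. The lips-10 and C01B9.4 windows matched none of the motifs.

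Most intron peaks did not recur. Found in both replicates means that each replicate's own list had a summit within 100 bp of the pooled summit. This held for 267 of 1227 intron peaks, 21.8% (exact 95% interval 19.5 to 24.2), against a background of 24.7% of all pooled peaks. Replicate 2 alone had a partner for 403 intron peaks, replicate 3 alone for 381, and neither list for 176. Intervals here cover counting error only, and peaks are not replicates. The lists hold background regions as well as peaks and no read counts, so depth is unknown.

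The pooled signal, the authors' own value for each peak, ranged from 30.1 to 172 over the intron peaks, with a median of 35.5 and quartiles of 32.3 and 40.8. The deposited −log10 of the q-value ran from 0.0175 to 2.48, with a median of 0.0793. Low values on this scale mean high q-values, so most intron peaks had weak statistical support of their own. At the intron peak ranked 25 by signal, in gei-4, the value was already down to 1.05. Densities and counts over all intron peaks therefore describe mostly weak regions. Recurrence followed the signal, which was computed from the same reads. In the highest of 4 equal groups by signal, 53.1% (47.3 to 58.8) of intron peaks were found in both replicates. In the next groups down the share was 20.8%, 7.82% and 5.23%. Mean GC of the windows moved with it, at 40.8%, 38.1%, 35.7% and 34.7% from the highest to the lowest group. Its part in recurrence was not tested.

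**Figure D1:**
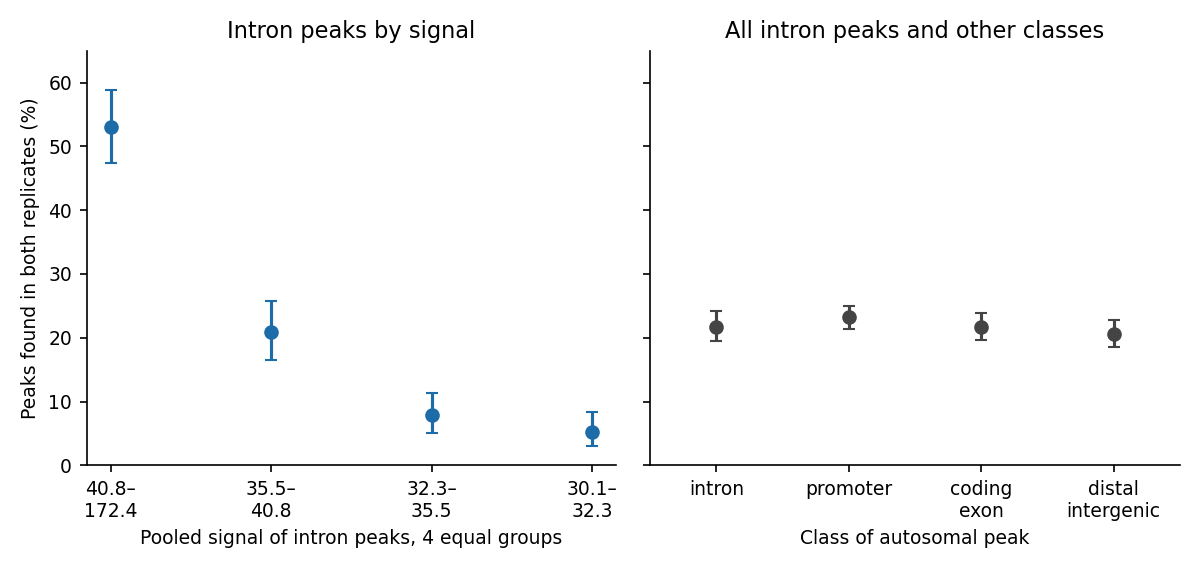
Share of peaks found in both replicates (y axis, percent, points with exact 95% intervals) for the intron peaks in 4 equal groups by pooled signal (left) and for all intron peaks beside the other autosomal classes (right). The share was 53.1% in the highest signal group and 5.23% in the lowest, while the classes lay between 20.6% and 23.2%.

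Between the replicates, signal ranks of the intron peaks found in both were loosely related, with a Spearman rho of 0.209 over 267 peaks, given as a description of peaks that share their libraries. Replicate 2 signal ran from 16.04 to 107 with a median of 20.9, and replicate 3 signal ran from 15.8 to 66.8 with a median of 20.7. The replicate summits of 1 peak stood a median of 45 bp apart. Applying the same rule to each replicate's own list gave 1915 intron peaks of 12866 (14.9%) in replicate 2 and 2029 of 13745 (14.8%) in replicate 3. Of these, 260 had a summit of the other list's peaks within 100 bp, 13.6% of the replicate 2 intron peaks and 12.8% of the replicate 3 intron peaks. Over all peaks the same shares were 18% and 16.8%.

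**Figure D2:**
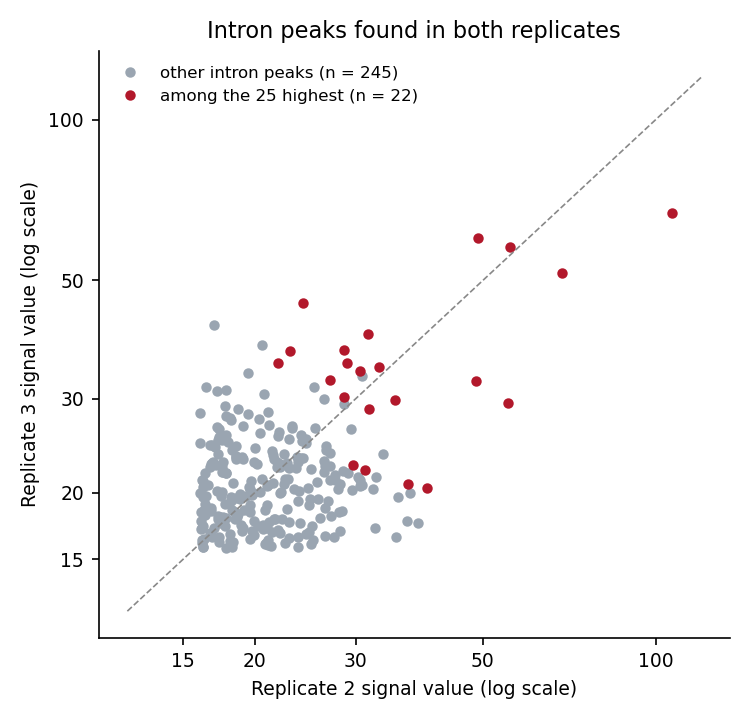
Signal value of each of the 267 intron peaks found in both replicates, in replicate 2 (x axis) and replicate 3 (y axis), on log scales whose units the authors do not state. The dashed line marks equal values; most points form a cloud near 20 in both replicates, and the few above 50 in both belong to the 25 intron peaks of highest pooled signal.

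The authors' optimal list, made with the irreproducible discovery rate, held 6 intron peaks, or 0.489% of the 1227 (0.180 to 1.06), against a background of 2.67% of all pooled peaks. That background includes the mitochondrial genome, the X chromosome and the neighbourhoods of small RNA genes, which the rule leaves out. Set against other autosomal classes under the same small RNA distance, intron peaks did not differ past the threshold in any of 6 comparisons by 2-sided Fisher's exact test with Benjamini-Hochberg adjustment over the 6. The share found in both replicates was 21.8% for intron peaks and 23.2% for 2178 promoter peaks, a difference of -1.43 percentage points (-4.29 to 1.53, exact adjusted p = 0.759). It was 21.7% for 1449 coding exon peaks, a difference of 0.0903 points (-3.03 to 3.24, exact adjusted p = 0.963), and 20.6% for 1404 distal intergenic peaks, a difference of 1.18 points (-1.94 to 4.32, exact adjusted p = 0.759). The share in the optimal list differed from that of promoter peaks by -0.246 points (-0.772 to 0.394), of coding exon peaks by 0.144 points (-0.387 to 0.751) and of distal intergenic peaks by -0.651 points (-1.40 to 0.0706), with exact adjusted p of 0.759, 0.916 and 0.513. Together the intervals of the first share span -4.29 to 4.32 points, and those of the optimal share -1.40 to 0.751 points. With a pooled top list 5 times as long in place of the optimal list, intron peaks were less often included than promoter peaks, with a difference of -3.44 points (97 of 1227 against 247 of 2178, exact adjusted p = 0.00816).

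The strongest intron peak, with a pooled signal of 172, lay in intron 5 of 9 of ints-8, which encodes a subunit of the Integrator complex that processes snRNA transcripts (chromosome I, 13463881 to 13464067). Its signal was 107 in replicate 2 and 66.8 in replicate 3, the highest intron value of either list. The summit fell 8 bp past the 5′ end of rpr-1, a 253 bp non-coding RNA gene for the RNA of RNase P, on the strand opposite to ints-8. It was also the 1 intron peak of 187 bp, where the other 1226 were 444 bp wide.

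The peak in intron 3 of lips-10, a lipase-related gene (chromosome II, 8441478 to 8441921), had a pooled signal of 121, with 68.6 in replicate 2 and 51.5 in replicate 3. The peak in intron 2 of klp-6, a kinesin of ciliated sensory neurons (chromosome III, 5031444 to 5031887), had 116, with 55.7 in replicate 2 and 57.8 in replicate 3. Its summit fell 42 bp into srpr-2.2 and 4 bp beyond the 3′ end of R144.16, and 94.3% of the 32-base words in its window occur elsewhere in the genome as well. How reads matching several places were treated is not given in the sources used here, so the place of this peak among the copies is uncertain.

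The peak of C01B9.4 (chromosome II, 13780653 to 13781096) lay in an intron of 12859 bp, 1851 bp from the nearest exon, and had a pooled signal of 105.3, with 49.1 in replicate 2 and 59.98 in replicate 3. In mdt-26, which encodes a Mediator subunit (chromosome II, 5661655 to 5662098), the intron 1 peak had 79.2, with 48.7 in replicate 2 and 32.4 in replicate 3. The pbrm-1 peak was less secure. This gene encodes a polybromo subunit of a SWI/SNF chromatin remodeller (chromosome I, 7500377 to 7500820). Its peak had a pooled signal of 85.3 and 46.8 in replicate 2, but no partner in replicate 3. These 6 are the optimal intron peaks. When both replicate lists were cut to the length of the optimal list, 4 intron peaks in all stood within both. They were the 4 of highest pooled signal. The matching share over all peaks is not given here, so this count is a description only.

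**Figure D3:**
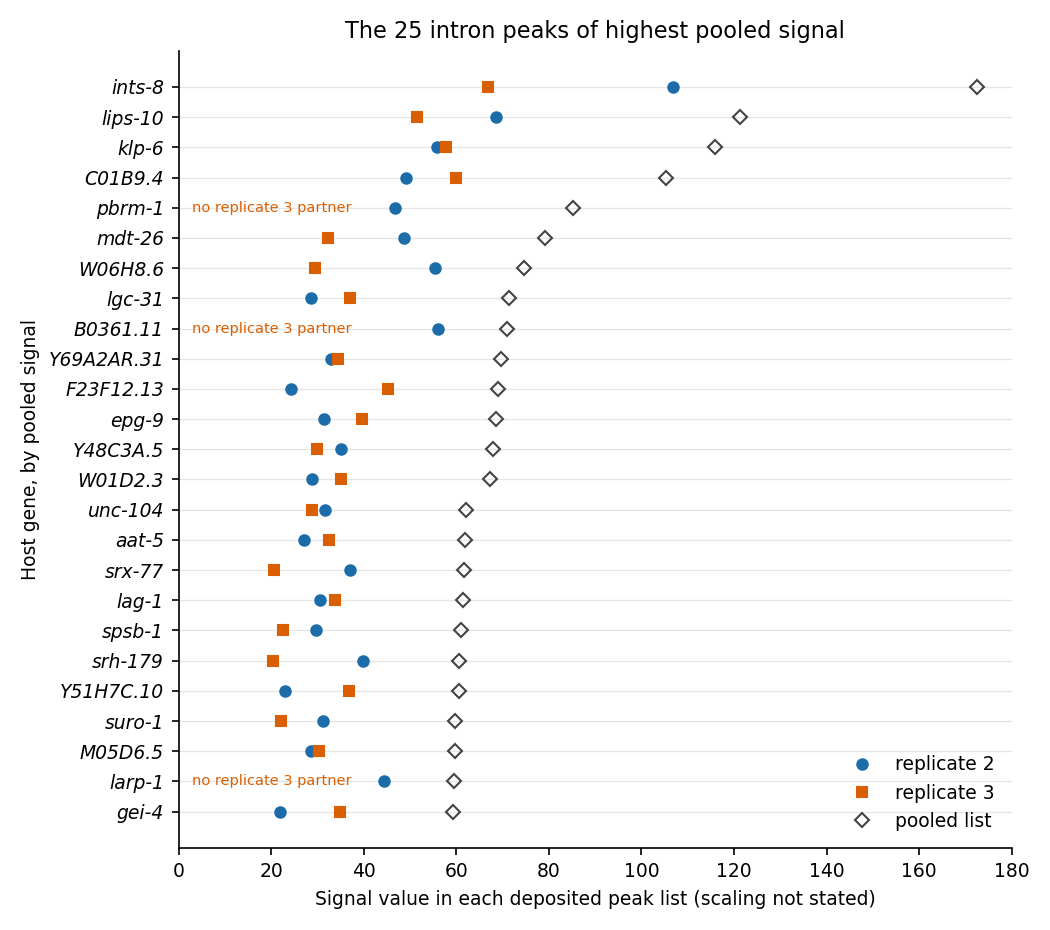
Signal value (x axis, scaling not stated by the authors) of the 25 intron peaks of highest pooled signal, by host gene, in replicate 2 (circles), replicate 3 (squares) and the pooled list (open diamonds). The pooled value lay above both replicate values in each row, and pbrm-1, B0361.11 and larp-1 had no replicate 3 partner.

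The 25 intron peaks of highest signal spanned 59.2 to 172. Of these, 22 were found in both replicates, 3 lacked a partner in replicate 3 and 0 lacked one in replicate 2. The share found in both was 21.8% over all intron peaks and 24.7% over all pooled peaks. The 25 were picked by pooled signal, which was computed from the same reads, so their high recurrence is not separate evidence. By chromosome, 9 lay on II, 5 on III, 4 each on I and V and 3 on IV. Over all 1227 intron peaks the counts were 245 on II, 227 on III, 179 on I, 323 on V and 253 on IV. Of the 25, 21 lay past the first intron. This was near the background, as 83.5% of all intron peaks and 84.5% of the sequence meeting the rule lay there. Some of the 25 were hosted by genes of neurons and signalling. Among these, unc-104, the kinesin that carries synaptic vesicle precursors, had 31.6 in replicate 2 and 28.8 in replicate 3. Its summit lay 57 bp from C52E12.t1, a tRNA pseudogene, in a window where 94.3% of 32-base words were repeated elsewhere. The ligand-gated channel gene lgc-31 had 28.7 and 37.0 in replicates 2 and 3, in an intron of 42 bp, so the 444 bp peak reached well into its exons. The Notch pathway transcription factor gene lag-1 had 30.5 and 33.8 in replicates 2 and 3, in a first intron of 5917 bp.

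Hosts with roles in metabolism and transport included aat-5, an amino acid transporter, with 27.1 in replicate 2 and 32.6 in replicate 3, and F23F12.13, a predicted major facilitator transporter, with 24.2 and 45.3. The autophagy gene epg-9 had 31.5 and 39.6 in replicates 2 and 3. A pair of chemoreceptor genes, srx-77 and srh-179, were higher in replicate 2 (37.0 and 39.9) than in replicate 3 (20.7 and 20.4). Only replicate 2 supplied a partner for B0361.11 (56.0), whose summit lay 4 bp before mir-2214, and for larp-1 (44.4), which encodes an RNA-binding protein. Where both values existed, replicate 2 was the higher in 10 of these 22 peaks.

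Non-coding RNA genes lay at more intron peaks than their share of the sequence. The sequence that could hold a member, every base meeting the rule, came to 21.9 Mb, or 26.5% of the autosomes. Of the intron peaks, 35 (2.85%, 1.99 to 3.94) had their summit in a non-coding RNA gene, against 1.37% of this sequence. Genes of the general class ncRNA held 30 summits (2.44%, 1.66 to 3.47), against 0.877% of the sequence. They included 4 of the 25 highest intron peaks and 2 of the 6 optimal ones, at ints-8, klp-6, W06H8.6 and W01D2.3. W06H8.6 had 55.3 in replicate 2 and 29.4 in replicate 3, and W01D2.3 had 28.9 in replicate 2 and 35 in replicate 3. The 30 had a median signal of 40.2, against 35.5 for all intron peaks. Of the 30, 8 (26.7%) were found in both replicates, near the 21.8% of all intron peaks. The other classes were sparse, with 3 summits in antisense RNA genes, 2 in piRNA genes and 1 in a lincRNA gene, linc-90 within gei-4. With all 35 removed, 1192 intron peaks remained.

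Intron peaks were not spread evenly over the sequence that could hold them. They averaged 56.1 per Mb (exact 95% Poisson interval 53.0 to 59.3), against 110 for promoter peaks, 95.6 for coding exon peaks and 60.9 for distal intergenic peaks in their own sequence. Their density changed with GC. In windows under 40% GC there were 43.9 intron peaks per Mb (40.9 to 47.1), at 40 to under 45% GC 55.6 (46.7 to 65.7), at 45 to under 50% GC 102.5 (85.4 to 122), and at 50% GC or more 285 (247 to 328). The GC-richest windows made up 3.12% of the sequence and held 195 intron peaks, 15.9% of them. Of these 195, 31.8% were found in both replicates, against 21.8% of all intron peaks and 24.7% of all pooled peaks. Their median signal was 38.6, against 35.5 for all intron peaks.

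The gradient was present in each replicate's own list. In windows of 50% GC or more, replicate 2 had 415 intron peaks per Mb (368 to 467) and replicate 3 had 295 (256.1 to 339). Under 40% GC, replicate 2 had 67.4 per Mb and replicate 3 had 78.8. The ratio of the GC-rich to the GC-poor density was therefore 6.16 in replicate 2 and 3.75 in replicate 3, against 6.49 in the pooled list and 10.9 among pooled peaks found in both. It was 7.45 in windows where no 32-base word recurs in the genome. High density at high GC was not limited to introns. At 50% GC or more, promoters had 393 peaks per Mb, coding exons 353 and distal intergenic sequence 267. At 30 to under 35% GC the densities were 41.4 for introns, 72.4 for promoters, 55.9 for coding exons and 45.6 for distal intergenic sequence. In promoters and distal intergenic sequence the change was not one-way. Under 25% GC there were 45.7 per Mb in introns, 114 in promoters and 58.1 (49.8 to 67.3) in distal intergenic sequence. At 35 to under 40% GC distal intergenic sequence had 38.5 (33.0 to 44.8). Coding exons had 65.2 (45.9 to 89.8) at 25 to under 30% GC and 44.1 (37.9 to 51.1) at 35 to under 40%, with overlapping intervals. The GC dependence of the control reads was not analysed here, and its part in these densities was not tested.

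**Figure D4:**
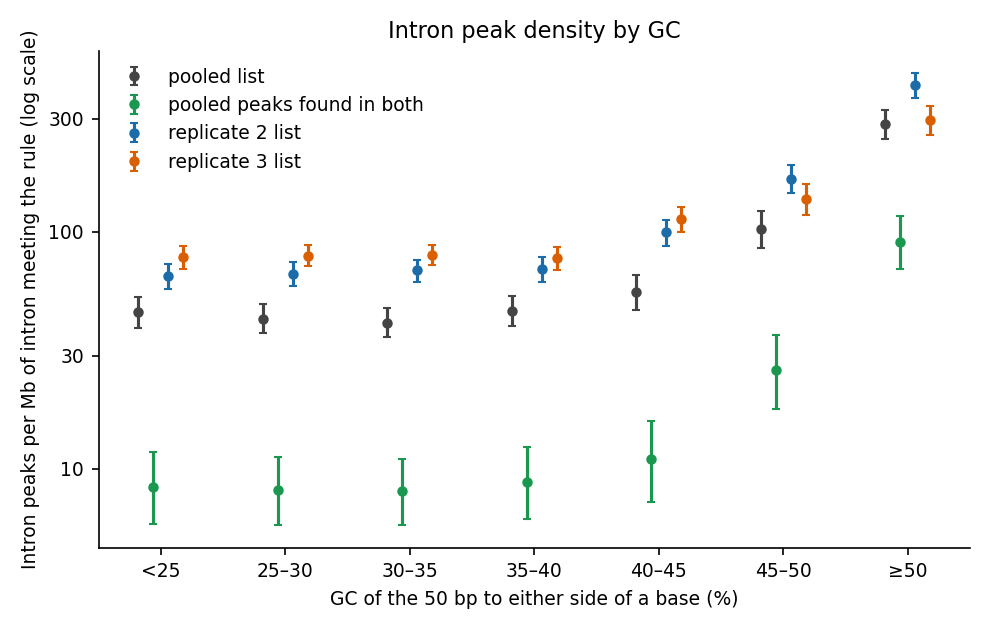
Intron peaks per Mb of intron sequence meeting the rule (y axis, log scale, points with exact 95% Poisson intervals) by the GC of the window with 50 bp to either side (x axis, percent), for the pooled list, the pooled peaks found in both replicates and each replicate's own list. All 4 series stayed nearly level below 40% GC and were highest at 50% GC or more, where the pooled list had 285 per Mb.

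The same tilt showed locally. The windows at intron summits averaged 37.3% GC, and those at summits found in both replicates 39.5%, against 35.1% in windows 500 bp away that also met the rule and 33.0% over all such sequence. The difference from the flanking windows was 2.22 percentage points in the pooled list, 2.96 with replicate 2's own intron peaks and 1.36 with replicate 3's. A run of 8 T (TTTTTTTT) occurred in 12.6% of intron windows (10.8 to 14.6), against 17.6% of flanking windows and 19.5% of all such sequence. This word holds no G or C, so it is not independent of the GC values.

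The nuclear receptor core site, AGGTCA or GGGTCA on either strand, lay in 54 of 1227 intron windows, 4.40% (3.32 to 5.70), against 4.83% (3.71 to 6.16) of 1263 flanking windows and 3.68% of all such sequence. Among intron peaks found in both replicates it lay in 13 of 267, 4.87% (2.62 to 8.18). These intervals overlap, as do those of the variant AGTTCA, at 5.22% of intron windows and 6.81% of flanks. The GATA site TGATAA lay in 7.82% of intron windows and 8.55% of flanks, the E box CACGTG in 1.96% and 2.45%, and the AP-1 site TGACTCA in 1.06% and 1.19%. The repeat GAGAGA lay in 6.28% of intron windows (4.98 to 7.78) and 6.18% of flanks, against 4.12% of all sequence meeting the rule. The B box core GGTTCGA lay in 0.896% and 0.9501%. The repeat CACACACA lay in 1.87% of intron windows (1.19 to 2.80) and 1.11% of flanks, with overlapping intervals, against 0.610% of all sequence meeting the rule. The GC-rich word GCGCAGGG lay in 0 of 1227 intron windows (exact upper limit 0.300%) and in 1 of 1263 flanks. A match is a description of letters and not evidence of a bound factor.

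Repeated sequence carried few intron peaks. In windows where at least 50% of 32-base words recur in the genome there were 13 intron peaks, 5.75 per Mb (3.06 to 9.84), although such windows made up 10.3% of the sequence. In windows with no recurring word there were 1119, or 65.5 per Mb (61.7 to 69.5). The treatment of reads with several matches was not given, and its part in this difference was not tested. The 13 include klp-6 and unc-104, so 2 of the 25 highest intron peaks came from such windows.

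By intron length, the density had a low point in the middle. It was 75.4 per Mb (68.4 to 82.9) in introns under 500 bp, 59.0 at 500 to under 1000 bp, 33.9 (28.9 to 39.6) at 1000 to under 2000 bp, 47.5 at 2000 to under 5000 bp and 61.0 (51.8 to 71.4) at 5000 bp or more. In windows with no recurring word the low point stayed, at 40.5 per Mb (33.8 to 48.1), and the longest introns had 73.4. Replicate 2's own list had 110, 59.6 and 100.5 per Mb in the shortest, 1000 to under 2000 bp and longest introns, and replicate 3's had 135, 54.7 and 91.1. Peaks found in both replicates had 16.1, 5.73 and 16.4. Of the intron peaks, 427 lay in introns under 500 bp, and 320 had their summit within 50 bp of an exon. A 444 bp peak there spans exon as well. Over the 267 found in both, replicate summits stood a median of 45 bp apart, close to the 50 bp used here for nearness to an exon. Each replicate summit there had to lie within 100 bp of the pooled one.

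The chromosomes also differed. Chromosome V had 71.0 intron peaks per Mb (63.5 to 79.2), II had 67.5, IV 56.9, III 52.2 and I 36.4 (31.3 to 42.2). In windows with no recurring word, V had 81.9 and I had 43.2. Replicate 2's own list had 104.3 on V and 63.9 on I, and replicate 3's had 121 on V and 73.7 on I. For intron peaks found in both replicates the values were 14.96 on V (11.6 to 18.96) and 9.37 on I (6.86 to 12.5), with intervals that overlap. Mean GC of the sequence was 33.4% on V and 32.8% on I. The middle 50% of the chromosomes had 65.9 intron peaks per Mb (60.7 to 71.4), and the outer 50% had 49.2 (45.4 to 53.2). For those found in both replicates the values were 13.3 (10.99 to 15.9) and 11.5 (9.68 to 13.5), with overlapping intervals. First introns, with 59.5 per Mb (51.5 to 68.3), and later ones, with 55.4 (52.1 to 58.9), had overlapping intervals.

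**Figure D5:**
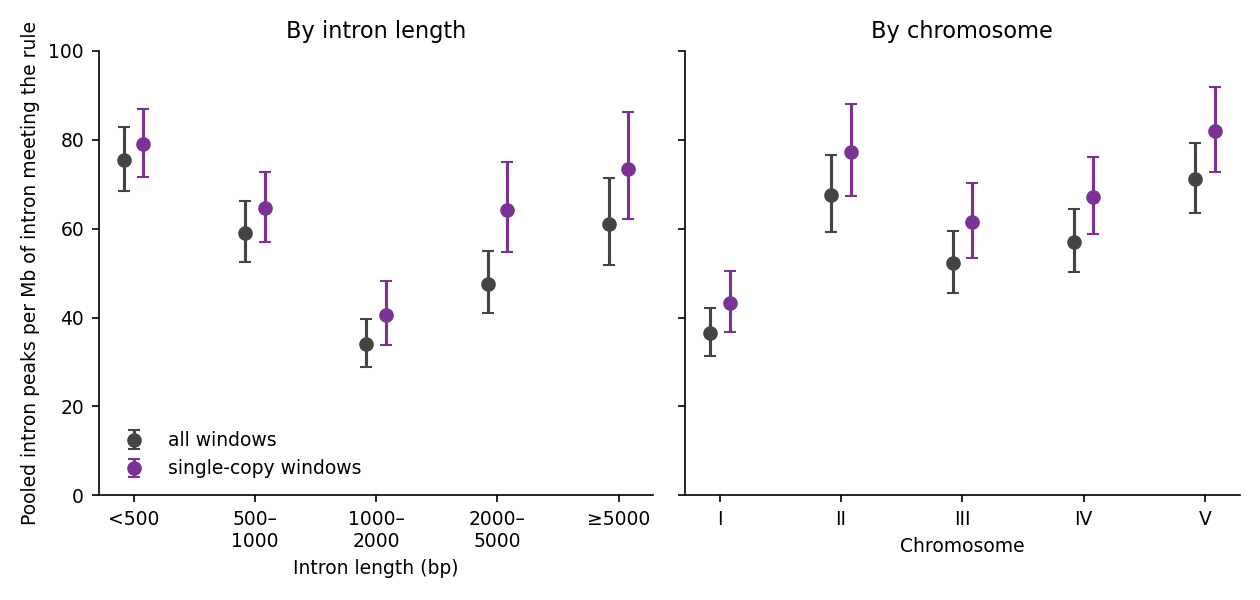
Pooled intron peaks per Mb of intron sequence meeting the rule (y axis, points with exact 95% Poisson intervals) by intron length (left, bp) and by chromosome (right), in all windows and in windows where no 32-base word recurs in the genome. Introns of 1000 to under 2000 bp had the lowest density, 33.9 per Mb, and chromosome V had 71.0 per Mb against 36.4 on I.

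Density was lower farther from transcript starts. It was 68.6 per Mb (61.8 to 75.8) at up to 1000 bp from the nearest protein-coding start, 60.6 at over 1000 to 2000 bp, 48.96 at over 2000 to 5000 bp and 32.5 (25.2 to 41.3) beyond 5000 bp. The summit nearest to the start limit on the inside was in Y76A2B.4 at 501 bp, with a signal of 38, and the nearest on the outside was in rhgf-2 at 498 bp, with 30.4. At the small RNA limit, F42C5.9 stood inside at 202 bp with 32.7 and glr-2 outside at 175 bp with 36.8. In all, 109 intron summits were left out by the small RNA distance alone. Their median signal was 48.4, their maximum 329, and 25 were in the optimal list.

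The intron peaks lay in 997 of the 14343 genes with sequence meeting the rule, 6.95%, and 830 of these genes held 1 peak. The most peaks, 7, lay in Y48C3A.5 on chromosome II, of which 3 were found in both replicates. Its top peak, in an intron of 19925 bp, had 35.1 in replicate 2 and 29.8 in replicate 3. Y67D8A.2 held 6, of which 1 was found in both. The phosphatase 4 regulatory subunit gene ppfr-1 held 6 and the elongation factor gene ell-1 held 5, and 0 of these 11 recurred in both replicates. Among the 8 genes with the most, the densest was gei-4 on chromosome III, with 4 peaks in 1 intron over 6667 bp meeting the rule. Of these 4, 3 were found in both replicates. Over all intron peaks the share found in both was 21.8%, and the counts per gene are too small to set apart from it.

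Hosts were also counted in 12 lists of genes by known role. Over all genes that could hold one, 6.95% were hosts, at 56.1 intron peaks per Mb, and 21.8% of the intron peaks were found in both replicates. The median length of host genes was 4906 bp, against 2309 bp for all genes that could hold one. Host shares are not adjusted for gene length. Of 246 nuclear hormone receptor genes that could hold one, 25 (10.2%) hosted 29 intron peaks, or 109 per Mb (73.2 to 157), and 4 of the 29 (13.8%) were found in both replicates. Their median signal was 35.2, against 35.5 for all intron peaks. The highest was in nhr-46, with 16.4 in replicate 2 and 31.6 in replicate 3, while nhr-211 had 33.2 in replicate 2 only. The replicate 2 value of nhr-46 ranked only 11933 of 12866 in a list that holds background regions. In nhr-23, needed for moulting, the values were 23.7 in replicate 2 and 22.3 in replicate 3. Of 184 detoxification enzyme genes, 16 (8.70%) hosted 16 intron peaks, 106 per Mb (60.6 to 172), of which 5 (31.2%) were found in both. Among them was ugt-44 (25.1 and 16.04 in replicates 2 and 3), whose replicate 3 value ranked only 12923 of 13745.

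Muscle structure genes hosted 17 intron peaks in 13 of 40 genes (32.5%), 85.6 per Mb (49.9 to 137), with 5 (29.4%) found in both. They included unc-52, the perlecan of the muscle basement membrane (17.2 in replicate 2 and 31.0 in replicate 3), and unc-45, a myosin chaperone (23.9 and 20.1). Host shares were also above 6.95% for synapse and vesicle genes (26.2%) and signalling kinase and phosphatase genes (20.8%). So were those of cell adhesion and axon guidance genes (20.5%) and ion channel and transmitter receptor genes (15.2%). Shares were below 6.95% for homeobox (5.80%), germline (4.95%), intestinal (4.89%), collagen and cuticle (4.375%) and chemoreceptor genes (3.96%). Against the 56.1 per Mb and 21.8% found in both of all intron peaks, chemoreceptor genes hosted 54, 68.5 per Mb (51.5 to 89.4), with 11 (20.4%) found in both. Ion channel and transmitter receptor genes hosted 35, 48.0 per Mb, with 9 (25.7%) in both. Synapse and vesicle genes hosted 17, 73.0 per Mb, with 3 (17.6%) in both, and signalling kinase and phosphatase genes 30, 56.2 per Mb, with 6 (20%) in both. Cell adhesion and axon guidance genes hosted 21, 39.7 per Mb, with 3 (14.3%) in both, and intestinal genes 16, 69.2 per Mb, with 3 (18.8%) in both. Collagen and cuticle genes hosted 7, 34.6 per Mb, with 1 (14.3%) in both. Germline genes hosted 5, 39.2 per Mb, with 2 (40%) in both, among them lin-41, with 21.5 in replicate 2 and 20.9 in replicate 3. Homeobox genes hosted 4, 20.6 per Mb (5.60 to 52.6), with 0 in both, at genes such as nob-1, unc-62 and lin-11.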

How the data were processed

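ChIP-seq peaks of 2 biological replicates were used as deposited on ce11: a list per replicate, a pooled list and the authors' optimal list. Alignments with a control were the input to calling, and all but the optimal list hold background regions, per the file descriptions. The signal value of each peak is the authors' own and its scaling is not stated; the −log10 of a q-value was deposited beside it. Aligner, caller, versions and read filters are not given in the sources used here. Lists on ce10, alignments and signal tracks were not used.

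Summits were placed on Ensembl release 115 gene models of WBcel235, and tRNA pseudogenes came from RefSeq. An intron was a gap between the merged exons of its host gene, and the shortest gap over a summit decided the host. GC, motif and repeat values used windows of 50 bp to either side. A word counted as recurring when its 32 bases occurred again in the genome on either strand. Peaks per Mb are per Mb of bases that meet the rule, with exact Poisson intervals, and shares have Clopper-Pearson intervals; both cover counting error only. Fisher's exact tests and Newcombe intervals came from scipy 1.17.1 and statsmodels 0.14.6. Of these, only the Fisher tests were tried on simulated data.

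The members and lists were chosen with earlier results of these data known. Named peaks were the 25 of highest signal, those in the optimal list, the 15 highest found in both replicates, the top peak of the 8 genes with the most, and the 3 highest of each gene list. The motifs, GC and length classes, repeat measure and non-coding gene counts, and the splits by replicate list and single-copy windows, were chosen after member sequences or values had been seen.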

Additional observations from a re-analysis of the deposited data

How the results depend on the processing

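The 6 class comparisons gave 42 values under other settings, of which 1 passed the threshold: with a pooled top list 5 times as long as the optimal list, intron minus promoter was -3.44 percentage points. The differences that changed sign did not pass the threshold under either setting. For the share found in both replicates, intron minus distal intergenic was -0.402 with summits within 50 bp and -3.81 in the upper 50% by signal. Intron minus coding exon was -0.883 with summits within 200 bp, -3.04 by overlap of at least 1 bp and -0.143 in the upper 50%. For the optimal share, intron minus coding exon was -0.0138 and -2.31 with top lists 2 and 5 times as long, -0.0719 with starts within 1000 bp left out and -0.0114 without non-coding RNA genes.

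With each replicate left out in turn, the first share became the share with a partner in the remaining replicate, and its difference ran from -3.29 to 0.0134 against promoter peaks and from -2.47 to 0.982 against coding exon peaks. The difference in the optimal share, taken as a top list of the same length, ran from -0.275 to 0.0620 against promoter peaks and from -0.111 to 0.00906 against coding exon peaks. The number of intron peaks ran from 1915 to 2029. Each replicate list is longer than the pooled one. Intron peaks also made up more of it, 14.9% in replicate 2 and 14.8% in replicate 3 against 12.8% of the pooled list.

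The number of intron peaks was 847 to 1514 with starts cleared by 1000 or 250 bp. Those found in both replicates numbered 155 with summits within 50 bp and 475 by overlap. GC at summits exceeded that of flanks by 4.75 percentage points for peaks found in both, and all sequence meeting the rule by 4.36. No paired analysis was possible because there was 1 group. Depth is unknown, so what depth limits could not be given.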
